A study of Homo sapiens with 2 samples.

Results

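The proneural and neuroendocrine transcription factors ASCL2, NEUROG1, NEUROG2, NEUROG3, NEUROD1, ATOH1 and INSM1 were examined in A549 cells with and without activated Notch1. These 7 genes were chosen by their symbols, as factors classically held down under Notch signaling, and all 7 were found among the 19198 genes measured. The data are mRNA-sequencing profiles of polyA RNA from the A549 line, an established human non-small cell lung cancer (NSCLC) line. One library came from cells labelled NICD1 overexpression (A549-NICD1), where NICD1 is the intracellular domain of NOTCH1 that the activated receptor releases into the nucleus. The other came from the VECTOR control (A549-Vector), and per the study's methods NICD1 was carried by a lentiviral vector in stable cell lines. With 1 library for each group, differences have no replicate check and no p-value is given, and a difference between the NICD1 and vector states cannot be told apart from a difference between the libraries.

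The level of NOTCH1 was 5.40 FPKM in the vector library and 2865 FPKM in the NICD1 library, or 9.11 on the log2 scale, as the labels require. FPKM is a read number divided by gene length and by depth, and depths were 48602848 reads for A549-Vector and 48528434 reads for A549-NICD1. The lung line label was checked against marker lists. Of 20 genes listed as A549 markers, 8 reached 1 FPKM in both libraries and 11 stayed under it in both, with KRT7, KRT19, FGA and FGB among those listed at 0 in both. The 20 genes summed to 202 FPKM in the vector library and 347 FPKM in the NICD1 library. Most of this came from KRT8, at 85.9 and 176 FPKM, and KRT18, at 73.1 and 130 FPKM. Of 14 genes listed for HEK293, an embryonic kidney line, 12 reached 1 FPKM in both libraries, with CRABP1 listed at 0 in both, and their summed level was 490 and 450 FPKM. Among the latter, IGF2BP1 was at 84.1 and 77.6 FPKM, NEFL at 33.5 and 31.9 FPKM, and CDKN2A, a tumor suppressor gene deleted in A549 cells by general knowledge, at 139 and 138 FPKM. The defining markers thus did not bear out the A549 label, gene totals do not settle which line was sequenced, and A549 is used below as the name the labels give. The part of this marker pattern in the results below was not tested.

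Proneural factors are basic helix-loop-helix (bHLH) proteins that pair with E-proteins, bind E-box sequences and switch on genes of neuronal or endocrine fate. In the textbook circuit of lateral inhibition they also raise Notch ligands, and Notch activity in the neighboring cell induces HES and HEY repressors, which bind N-box and related sites and keep proneural genes off. INSM1 is not a bHLH protein but a zinc finger repressor found in neuroendocrine and islet progenitors, and in the lung it is used as a marker of neuroendocrine tumors. NEUROG1 and NEUROG2 specify sensory and cortical neurons, NEUROG3 the endocrine cells of the pancreas and gut, NEUROD1 their later differentiation, ATOH1 hair cells, cerebellar granule neurons and secretory cells of the gut, and ASCL2 marks intestinal stem cells.

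Because the members are classical targets of HES repressors, the 250 bases upstream of each annotated start were searched on both strands for the N-box CACNAG, for CACGNG (a site type also bound by HES proteins), for the E-box CANNTG and for the RBPJ core TGGGAA. RefSeq sequence on GRCh38.p14 was matched for 5 of the 7 members and not for ASCL2 and INSM1. The sequences of ATOH1, NEUROG3 and NEUROG2 are shown because they hold the most, 1 and none of the HES-type motifs, read 5′ to 3′ toward the start, with capitals marking CACNAG or CACGNG on either strand. They span chr4:93828503-93828752 on the plus strand for ATOH1, chr10:69573423-69573672 on the minus strand for NEUROG3 and chr4:112516181-112516430 on the minus strand for NEUROG2.
ATOH1: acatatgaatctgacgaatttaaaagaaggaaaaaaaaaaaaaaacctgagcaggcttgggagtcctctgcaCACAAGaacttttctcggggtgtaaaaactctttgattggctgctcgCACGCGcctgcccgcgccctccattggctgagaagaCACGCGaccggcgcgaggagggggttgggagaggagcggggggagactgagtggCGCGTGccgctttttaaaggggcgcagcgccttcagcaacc
NEUROG3: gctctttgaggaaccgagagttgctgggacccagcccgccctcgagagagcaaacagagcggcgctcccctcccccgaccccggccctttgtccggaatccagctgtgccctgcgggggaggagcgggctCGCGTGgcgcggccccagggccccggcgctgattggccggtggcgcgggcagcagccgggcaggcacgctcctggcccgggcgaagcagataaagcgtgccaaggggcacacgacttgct
NEUROG2: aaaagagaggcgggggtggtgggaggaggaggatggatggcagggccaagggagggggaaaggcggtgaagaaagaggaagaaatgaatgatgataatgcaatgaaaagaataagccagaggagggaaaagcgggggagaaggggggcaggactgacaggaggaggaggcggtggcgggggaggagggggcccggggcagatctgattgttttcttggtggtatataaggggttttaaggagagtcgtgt
ATOH1 held 1 CACNAG match, whose first base lay 178 bases before the start, and 3 CACGNG matches at 131, 95 and 41 bases. NEUROG3 held 1 CACGNG match at 120 bases and 1 E-box at 150 bases, and NEUROG2 held none of the 4 motifs. NEUROG1 and NEUROD1 each held 1 CACGNG match, at 120 and 112 bases. In all, 4 of the 5 matched members had a CACGNG match against 26.7% of 35116 promoter windows of the same length, and 1 of 5 had CACNAG against 32.0%. An E-box was in 2 of 5 members against 61.8% of windows, and the RBPJ core in 0 of 5 against 20.8%. At least 3 CACGNG matches, as in ATOH1, were in 1.46% of windows. CACGAG counts for both HES-type motifs and CACGTG for both CACGNG and CANNTG, and a match describes letters and not binding. G and C made up from 55.2% (ATOH1) to 72% (NEUROG3) of these 5 windows, a share not compared with all windows.

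The members were expressed at low levels in both libraries. Summed over all 7, they reached 2.64 FPKM in the vector library and 2.03 FPKM in the NICD1 library, from 307 and 227 reads. At 1 FPKM or more there was 1 member in A549-Vector, INSM1, and there were 0 in A549-NICD1, whereas 64.0% and 63.6% of all genes reached this level. The members listed at 0 were NEUROD1 in A549-Vector and NEUROD1, NEUROG1 and NEUROG3 in A549-NICD1. Median levels over all genes were 4.71 FPKM in the vector library and 4.37 FPKM in the NICD1 library, above every member.

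**Figure D1:**
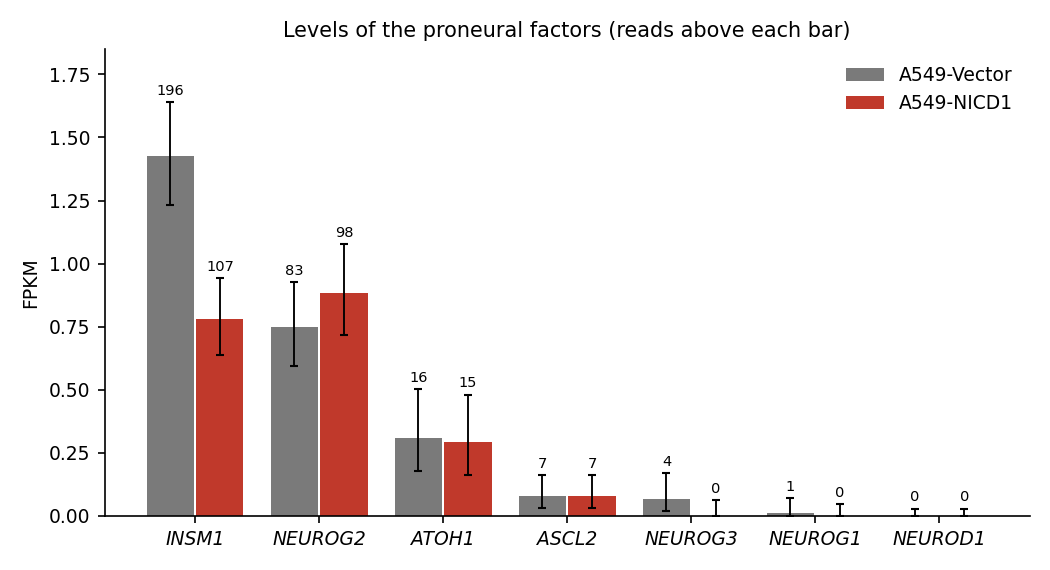
Level of each of the 7 proneural factors in FPKM (vertical axis, linear from 0) in A549-Vector (grey) and A549-NICD1 (red), 1 library each. Error bars are exact 95% Poisson intervals of the recovered reads, which are printed above each bar, and cover counting error only. INSM1 is at 1.43 FPKM in the vector library and 0.779 FPKM in the NICD1 library with bars that do not overlap, while the bars of the other 6 members overlap between the libraries.

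INSM1 was the highest member in A549-Vector and the only one of the 7 whose 2 levels differed by more than the counting error. The gene has 1 exon and is annotated at chr20:20368104-20370949 on the plus strand (GRCh38.p14, ENSG00000173404.4). It was at 1.43 FPKM in A549-Vector (exact 95% Poisson interval 1.23 to 1.64) from 196 reads and at 0.779 FPKM in the NICD1 library (interval 0.639 to 0.942) from 107 reads. A549-NICD1 was thus the low library, and the intervals do not overlap. With the depths scaled so that the bulk of genes had a ratio near 1, INSM1 was 1.76-fold lower with NICD1, which is -0.81 as a log2 fold change (Clopper-Pearson interval at 95%, -1.17 to -0.47). No interval here covers more than counting error, because each group had 1 library. PCR copies of 1 molecule cannot be recognized without molecular identifiers, so the intervals may be too narrow even for counting error. In rank by FPKM, INSM1 stood at 11813 among the 19198 genes in A549-Vector and at 12543 in A549-NICD1. In a bulk profile, fewer cells with INSM1 and less INSM1 RNA per cell cannot be told apart.

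A lower level by more than counting error was common among genes in these libraries. Of 15306 genes that had 10 or more reads in either library, 29.4% had a counting interval wholly below 0 and 28.6% one wholly above 0. Of the 7 members, 3 passed this filter, with INSM1 below 0, none above 0, and ATOH1 and NEUROG2 holding 0. No member passed 1 log2 unit in either direction, against 2.23% of all such genes below -1 and 4.34% above 1. The size of the INSM1 difference can be read beside genes of like depth. Among 990 genes with 202 to 454 reads summed over both libraries, the quartiles of log2 fold changes were -0.36 and 0.23, with a median of -0.08. INSM1 lay below the lower quartile, and 28.3% of these genes had an interval wholly below 0.

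**Figure D2:**
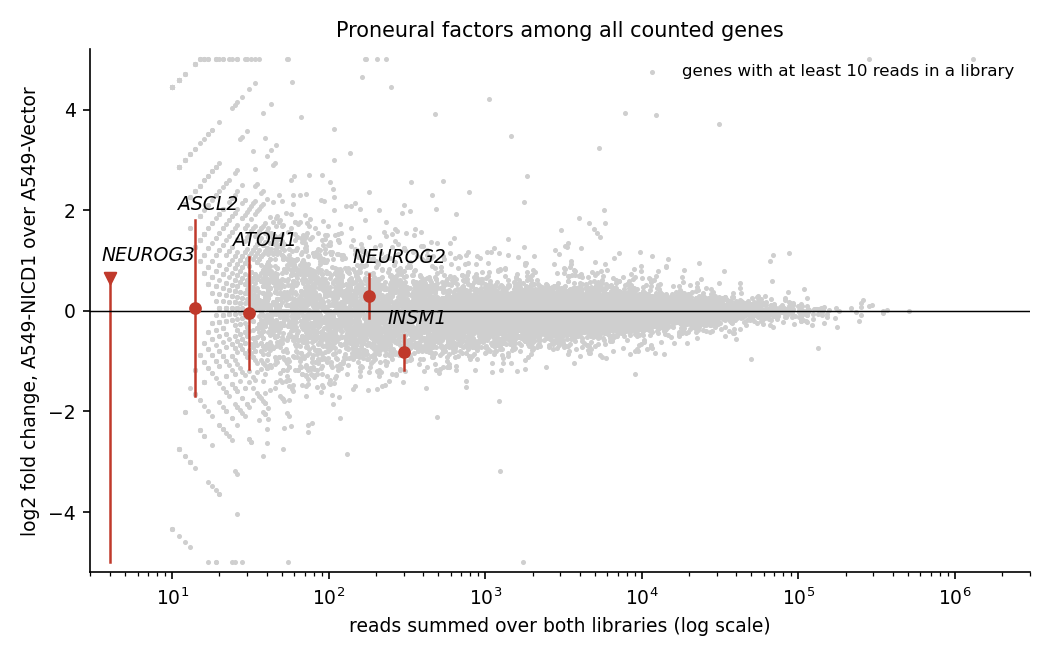
Log2 fold change of A549-NICD1 over A549-Vector (vertical axis, drawn to 5 in either direction with values beyond set at the edge) against reads summed over both libraries (horizontal axis, log scale). Grey points are the 15306 genes with 10 or more reads in either library, red points are members with their 95% counting intervals, and the red triangle is the upper end of the NEUROG3 interval, whose lower end has no limit. INSM1 at -0.81 lies below 0 with its whole interval, and NEUROG2, ATOH1 and ASCL2 hold 0. NEUROG1, with 1 read, and NEUROD1, with 0, are not drawn.

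NEUROG2, which drives cortical and sensory neurogenesis, was second in A549-Vector and first in A549-NICD1. The gene has 2 exons and lies at chr4:112513516-112516180 on the minus strand (ENSG00000178403.3). It was at 0.747 FPKM in A549-Vector (interval 0.595 to 0.926) from 83 reads and at 0.883 FPKM in the NICD1 library (interval 0.717 to 1.08) from 98 reads. These intervals overlap, and the log2 fold change of 0.29 had a counting interval of -0.14 to 0.74. This value lay between the quartiles of 908 genes with 121 to 271 summed reads, -0.42 and 0.30. AC023886.1 lies over the gene on the opposite strand, and although the study describes its sequencing as strand-specific, whether the counting used strand is not given in the sources used here, so reads of the pair may not have been kept apart.

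The balance of INSM1 and NEUROG2 differed between the libraries. The ratio of INSM1 to NEUROG2 in FPKM was 1.91 in A549-Vector and 0.883 in A549-NICD1. On the log2 scale this ratio differed by -1.11 between the libraries (exact conditional 95% interval -1.68 to -0.55), a value that needs no scaling between them. INSM1 made up 54.1% of the members' summed FPKM in the vector library and 38.4% in A549-NICD1, and NEUROG2 28.3% and 43.5%. These are differences between 2 libraries with counting error alone behind the interval. The contrast was not planned. Of the 3 members with 10 or more reads in either library, INSM1 had the lowest log2 fold change and NEUROG2 the highest. The interval of their ratio is therefore no support for the INSM1 difference beyond that of INSM1 itself.

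ATOH1, the factor of hair cells and of the secretory cells of the gut, was nearly level between the libraries. This single-exon gene lies at chr4:93828753-93830964 on the plus strand (ENSG00000172238.4). It was at 0.309 FPKM in A549-Vector (interval 0.177 to 0.502) from 16 reads and at 0.290 FPKM in the NICD1 library (interval 0.162 to 0.479) from 15 reads. The log2 fold change was -0.03 with a counting interval of -1.16 to 1.07, so a difference of up to about 1 log2 unit either way was not detectable at this depth. Reads follow from the gene length, here 1065 bases, which is the coding length. A length of 2130 bases, which also lies within the gene, gives 32 and 30 reads and an interval of -0.81 to 0.73.

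ASCL2, a target and driver of the WNT program of intestinal stem cells, had 7 reads in each library. The gene has 2 exons and is annotated at chr11:2268498-2270588 on the minus strand (ENSG00000183734.4). Its levels were 0.0779 FPKM in A549-Vector (interval 0.0313 to 0.160) and 0.0780 FPKM in the NICD1 library (interval 0.0314 to 0.161). With so few reads the log2 fold change of 0.06 had an interval of -1.68 to 1.80. Both levels lay above the floor of 3 reads set for a count of 0, which is 0.0334 FPKM for this gene. The lower ends of both intervals, 0.0313 and 0.0314 FPKM, lay under that floor.

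NEUROG3, the master factor of pancreatic endocrine cells, had reads in A549-Vector only. The gene has 2 exons and lies at chr10:69571485-69573422 on the minus strand (ENSG00000122859.4). It was at 0.0656 FPKM in A549-Vector (interval 0.0179 to 0.168) from 4 reads and was listed at 0 in A549-NICD1, where a count of 0 allows up to 0.0493 FPKM. After depth scaling, the 4 reads of A549-Vector stood 1.28-fold above this floor of 3 reads, with their own counting error left out. The lower end of the A549-Vector interval, 0.0179 FPKM, lay under the floor of 0.0493 FPKM, so no least fold can be given. The counting interval of the log2 fold change still reached up to 0.65, so the direction was not settled by these reads.

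NEUROG1 and NEUROD1 were at or under the limit of detection. NEUROG1, a 1-exon gene at chr5:135534282-135535964 on the minus strand (ENSG00000181965.5), had 1 read in A549-Vector, or 0.0123 FPKM, and 0 in A549-NICD1. The floor of 3 reads is 0.0371 FPKM for this gene, and no fold is given. NEUROD1, a 2-exon gene at chr2:181668295-181680517 on the minus strand (ENSG00000162992.3), was listed at 0 in both libraries, which allows a level of up to 0.0217 FPKM. CERKL overlaps NEUROD1 on the same strand, and 2 of 56 windows of 100 bases in the NEUROD1 transcript also occur in other genes. In the other 6 members 0 windows were shared.

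The order of the members differed between the libraries at the top, and at the bottom it could be read in A549-Vector only. In A549-Vector it ran INSM1, NEUROG2, ATOH1, ASCL2, NEUROG3, NEUROG1 and NEUROD1. From INSM1 down to ASCL2 no neighboring intervals overlapped, and from ASCL2 down neighbors overlapped. In A549-NICD1 NEUROG2 stood before INSM1, with overlapping intervals of 0.717 to 1.08 and 0.639 to 0.942 FPKM, followed by ATOH1 and ASCL2, and NEUROG3, NEUROG1 and NEUROD1 were tied at 0. The lower bound of ATOH1, 0.162 FPKM, lay just above the upper bound of ASCL2, 0.161 FPKM. By rank among all genes, NEUROG2 stood at 12664 in A549-Vector and 12361 in A549-NICD1, ATOH1 at 13617 and 13760, and ASCL2 at 14924 and 15137.

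Related neural bHLH genes, listed together with INSM2, were mostly as low as the members, with 16 of 19 under 1 FPKM in both libraries. Of the 19, 14 passed the filter of 10 reads, 5 with an interval above 0 and 2 below. For these and the list counts below, the shares over all counted genes were 28.6% above 0 and 29.4% below. The median log2 fold change of the 14 was 0.06, against -0.0030 over all counted genes. Over the 3 members that passed the filter it was -0.03, which is the value of ATOH1 alone. INSM2, the closest relative of INSM1, had 4 reads in the vector library and 39 in A549-NICD1, which is 3.19 on the log2 scale (interval 1.87 to 5.29), opposite in sign to INSM1. OLIG2, an oligodendrocyte and motor neuron factor, was the highest of the list at 3.29 FPKM in the vector library and 3.79 FPKM in the NICD1 library, above every member. ASCL3 had the lowest log2 fold change, -1.66, from 11 and 3 reads, with an interval of -4.30 to 0.10.

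The E-proteins and ID proteins lay above every member in both libraries, and the HES and HEY repressors spanned a wide range. The E-proteins TCF3, TCF4 and TCF12, with which proneural factors pair, were at 55.7, 9.63 and 17.5 FPKM in the vector library and at 48.5, 7.96 and 16.2 FPKM in the NICD1 library, with intervals below 0 for TCF3 and TCF4. The HES and HEY repressors summed to 213 FPKM in the vector library and 406 FPKM in the NICD1 library, with 6 of 9 counted genes above 0 and 2 below, a median log2 fold change of 0.50, and HES5 at 7.78 and 115 FPKM. HES2, at 0.357 and 0.131 FPKM, and HES3, at 2 reads in each library, were as low as the members. ID proteins, which sequester E-proteins, split, with ID1 and ID3 above 0 and ID2 and ID4 below, and ID3 was at 78.2 and 131 FPKM. REST, the repressor of neuronal genes outside neurons, was at 18.6 and 16.0 FPKM, and in its list with the TLE corepressors 3 of 11 were above 0 and 6 below, with a median of -0.10.

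**Figure D3:**
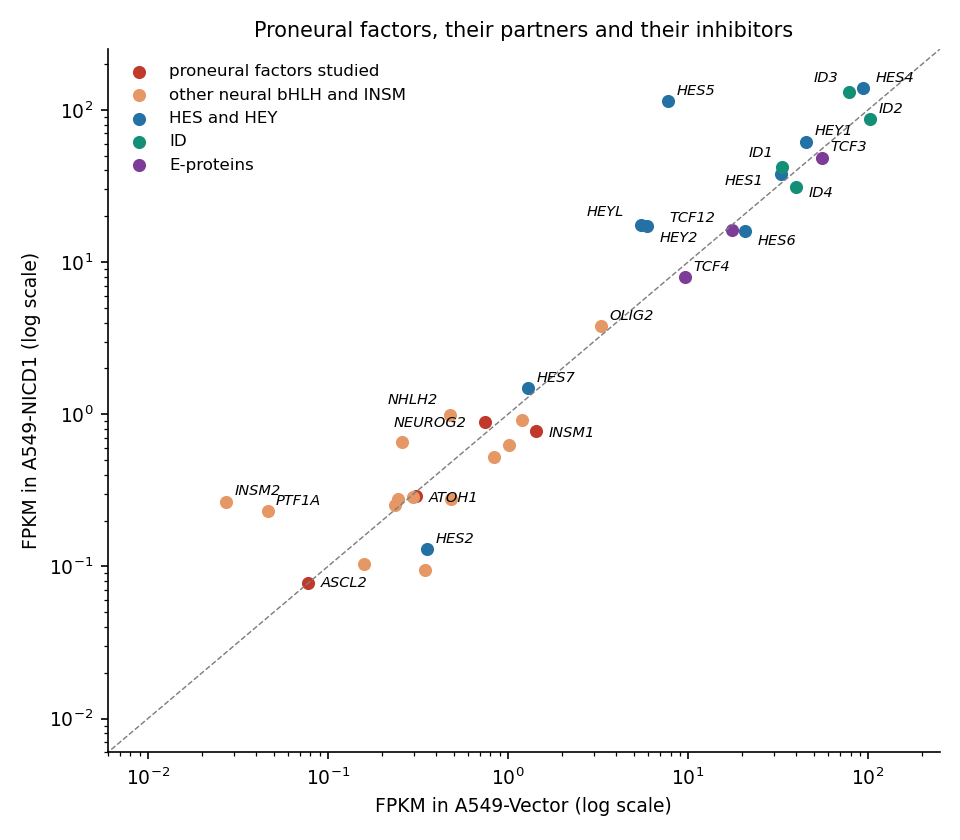
FPKM in the NICD1 library (vertical axis, log scale) against FPKM in A549-Vector (horizontal axis, log scale) for the proneural factors studied, related neural bHLH and INSM genes, HES and HEY repressors, ID proteins and E-proteins, 1 library each. Members are drawn where they have reads in both libraries, other genes where they also have 10 or more reads in either. The dashed line marks equal FPKM. INSM1 lies below the line and INSM2 and HES5 above it, and the members sit between 0.0779 and 1.43 FPKM in A549-Vector, under all E-proteins and ID proteins.

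Neither the Notch ligands and modulators nor the genes listed as downstream of the members shared one direction. Among 9 Notch ligands and modulators, 4 were above 0 and 3 below, with a median of 0.03 that was -0.02 when scaled by depth alone. JAG1, a ligand, was at 4.69 FPKM in the vector library and 15.2 FPKM in the NICD1 library, and DLL1, a direct target of proneural factors, at 2.88 and 4.84 FPKM. Of 26 downstream genes of neural differentiation, nearly all of them transcription factors, 23 were counted, 8 above 0 and 10 below, with a median of -0.12. GADD45G had the largest log2 fold change of these, 2.30, from 1.52 to 7.29 FPKM, and POU4F3, a hair cell factor beside ATOH1, the lowest, -1.45, from 18 and 6 reads. SOX4, the most abundant, was at 62.4 and 45.6 FPKM.

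Lineage genes beside INSM1, NEUROG3 and NEUROD1 were set beside these members. Of 13 endocrine islet factors, 12 were counted, 1 above 0 and 4 below, with a median of -0.08. RFX6, which acts with NEUROG3 in islet development, was at 0.663 and 0.294 FPKM, or -1.11 on the log2 scale (interval -1.63 to -0.63), and the gene above 0 was INSM2. Of 28 neuroendocrine and neuronal markers, 23 were counted, 9 above 0 and 6 below, with a median of 0.29. Over all counted genes, 28.6% were above 0 and 29.4% below. In FPKM the list summed to 285 in A549-Vector and 251 in A549-NICD1, since its most abundant genes UCHL1, at 169 and 144 FPKM, and CPE, at 50.7 and 41.9 FPKM, were lower. SCG3, a granin, was at 0.558 and 1.18 FPKM, SYP (synaptophysin) at 7.37 and 9.10 FPKM, and CHGA (chromogranin A) at 34 and 25 reads with an interval that held 0. In all, 15 of the 28 were under 1 FPKM in both libraries, and the part of this list in the INSM1 result was not tested.

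Gut lineage genes beside ASCL2 and ATOH1 differed between the lists. Of 12 intestinal stem cell genes, 11 were counted, 1 above 0 and 4 below, with a median of -0.0046 that was 0.0039 under median-ratio scaling. LGR5, a stem cell receptor, was at 2.52 and 1.92 FPKM (log2 fold change -0.34, interval -0.53 to -0.15). Of 10 secretory lineage genes, 7 were counted, 6 above 0 and 1 below, with a median of 0.54, while ATOH1 itself was at -0.03. The shares over all counted genes were 28.6% above 0 and 29.4% below. SPDEF, a goblet cell factor under ATOH1, had 2 reads in the vector library and 28 in A549-NICD1, and XBP1, a secretory stress factor, was at 55.5 and 81.3 FPKM. MUC2 had 2 and 4 reads and TFF3 was listed at 0 in both.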

How the data were processed

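PolyA RNA of the 2 libraries was profiled by mRNA-sequencing with the NEBNext Ultra kit. The authors deposited 1 value per gene, treated here as FPKM, and neither the file headers nor the paper's text name the unit. Submitters' processing notes list Bowtie2, HTSeq and hg38, without versions or roles. Of 19225 rows, 27 were dropped because their gene name had become a date.

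Whole reads were recovered from the FPKM of both libraries, as values are whole reads over depth and gene length. The ratio of depths, 1.00153, came from 1052 genes, and of 4 candidate depths for A549-NICD1 the one that gave an annotated transcript length most often was used (56 of 459 genes, against 14 of 541 at the next). Reads came out whole for 17176 of 17178 genes above 0, to within the rounding of 9 decimal places. With 1 depth raised by 1%, 19.2% of 1240 genes still gave whole reads, against 99.9%. Any multiple of a length gives whole reads too, so lengths were chosen with GENCODE 29 transcripts (18787 genes matched). The length was an exact transcript length for INSM1, NEUROG1 and NEUROG2, the coding length for ATOH1 and the multiple nearest to a transcript length for ASCL2 and NEUROG3. For these members except ATOH1, every larger multiple exceeds the gene. Recovered reads add up to 108% of both depths, so for other genes the read number may be a multiple of the true one, which leaves ratios unchanged but narrows intervals.

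Log2 fold changes used reads plus 0.5 over depth times a trimmed-mean factor (30% of log ratios and 5% of expression trimmed at each end, 0.964 for A549-NICD1), which understates changes of low genes. Intervals are at 95%. Counts used genes that had 10 or more reads in either library. Coordinates are RefSeq GRCh38.p14, and exons and lengths GENCODE. Shared sequence was searched in windows of 100 bases taken every 50 bases. Python 3.11.15, numpy 2.4.6 and scipy 1.17.1 were used, and the scripts were tested on simulated data. That test supplied the true length of each gene, so it does not cover the choice of length.

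Members and gene lists were chosen with earlier results of these data known. All members were to be named, with from each list the most abundant genes and those with the largest changes, and any listed gene could be named. Some listed genes are not reported by name here. Further listed genes were chosen as textbook examples, with their values known.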

Additional observations from a re-analysis of the deposited data

How the results depend on the processing

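No paired analysis was possible because each group had 1 library. Other scalings, pseudocounts, read filters and the smallest whole reads gave 171 values of 23 results. Of these, 162 were classed as the same, 9 as moved and 0 as reversed. Folds of single genes were set against their counting intervals, but medians of lists have none. Some medians near 0 did change sign. That of related bHLH and INSM genes went from 0.06 to -0.0098 with the smallest whole reads and to -0.17 with all genes above 0. INSM1 stayed lower in A549-NICD1 in all 7 settings, the reported one included, from -0.87 to -0.42, the latter with a pseudocount of 1 FPKM, which exceeds its level in A549-NICD1. NEUROG2 ran from 0.13 to 0.30, ATOH1 from -0.09 to -0.0087 and ASCL2 from 0.0022 to 0.064. The longer length of ATOH1, which gave -0.04, was chosen after seeing the data. With all genes above 0 counted, 2 members passed below -1, NEUROG1 and NEUROG3 with 1 and 4 reads, and the members' median was -0.42, that of related bHLH and INSM genes -0.17 and that of HES and HEY genes 0.38. With at least 50 reads the members' median was -0.26, over INSM1 and NEUROG2 only, and that of secretory genes 0.43. With a pseudocount of 1 FPKM the medians of neuroendocrine markers and secretory genes were 0.046 and 0.37. These moves come from which genes are counted and from a pseudocount near the levels of low genes. Scaling by depth alone shifted the median of all genes by -0.05. Depth limits 4 members, each under 10 reads in both libraries.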
